A study of Mus musculus with 6 samples.

Results

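Kinesins are motor proteins that walk along microtubules, and tubulins are the proteins from which microtubules are built. The genes described here are those whose symbol on the array starts with Kif followed by a digit or c, or with Tuba, Tubb, Tubg, Tubd or Tube, which also takes in the gamma-tubulin complex genes (Tubgcp). The array carried 60 such genes with 133 probes, and 45 genes with 71 probes were kept because 2 or more of the 5 mice had a detection p under 0.05. Across the whole array 11755 of 19057 genes passed the same filter. The 45 genes comprised 12 spindle kinesins, 14 transport kinesins, 3 ciliary and other kinesins, 13 tubulin isotypes and 3 members of the gamma-tubulin complex. Of these 45, 42 were detected in all 5 mice.

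Testis RNA came from hybrid C57/129 male mice that had received JQ1, an inhibitor of BET bromodomain proteins, at 50 mg/kg daily for 6 weeks (3 mice), or vehicle for the same time (2 control mice). Treatment ran from 6 to 12 weeks of age and was given by intraperitoneal injection. The whole testis was used, and the labels name no mutant allele in either group. RNA of control mouse 1 was hybridised to 2 bead arrays, which were averaged, so that 6 arrays stand for 5 mice. In whole tissue, fewer cells of a type and less RNA per cell cannot be told apart.

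In dividing cells, spindle kinesins slide, crosslink and shorten microtubules so that chromosomes can be aligned and separated and the cell divided. Transport kinesins carry vesicles, organelles and ciliary cargo along microtubules. The testis makes its own demands on both, since male germ cells pass through mitosis and meiosis and then build a manchette and a flagellum, and some alpha-tubulin genes are expressed mainly there. Sertoli cells, the somatic cells of the tubule, also hold a dense microtubule array.

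Between 17799 and 18918 probes were detected per array of control mice and between 19623 and 20326 per array of JQ1-treated mice. Among the probes of these genes 66 to 72 were detected per array. The technical pair differed with an SD of 0.209 on the log2 scale over the kept probes of these genes, against 0.228 between the 2 control mice. All levels below are normalized log2 signals, changes are log2 signal of JQ1-treated minus control mice, and the brightest kept probe represents each gene. A gene is said to have risen or fallen where the adjusted p from limma was under 0.05, with Benjamini-Hochberg adjustment over all 20901 kept probes. Testis identity was apparent in the marker lists, since all 9 elongating spermatid markers were measured, with summed signals of 121000 to 123000 in control and 112000 to 125000 in JQ1-treated mice. Of the 7 Sertoli cell markers measured 6 rose, all by more than 2-fold, and their summed signal was 6610 to 7040 in control and 17000 to 20000 in JQ1-treated mice. Gata4 and Amh, also on the Sertoli list, were detected in no mouse.

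After JQ1, 7 of the 45 genes rose and 15 fell, and 23 did not pass the test. As background, 46.6% of all genes measured passed, 25.0% as higher and 21.6% as lower, against 15.6% and 33.3% of the kinesin and tubulin genes. At 2-fold or more, Tubb5, Tuba1a, Tuba1b and, at 1 of its 2 probes, Kif1a rose (8.43% of all genes did so) and Kif18b fell (2.84% of all genes). Control and treated mice had no overlapping values in 30 of the 45 genes (66.7%), close to the 65.9% over all genes. The count of lower genes was the less stable one: cyclic loess normalization gave 7 higher and 8 lower of the 45 genes. Over all 11755 genes it gave 3283 higher and 1951 lower, against 2940 and 2537 in the main fit. Leaving out JQ1-treated mouse 2 or JQ1-treated mouse 3 gave 9 lower genes each. The shares over all genes were not counted in fits without 1 mouse. In every fit that left out 1 mouse, 5 of the 7 higher genes (Tubb5, Tuba1a, Tuba1b, Kif1a and Kif3c) and 6 of the 15 lower genes (Kif18b, Kif9, Kif3a, Kif3b, Tuba3a and Tuba3b) passed.

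**Figure D1:**
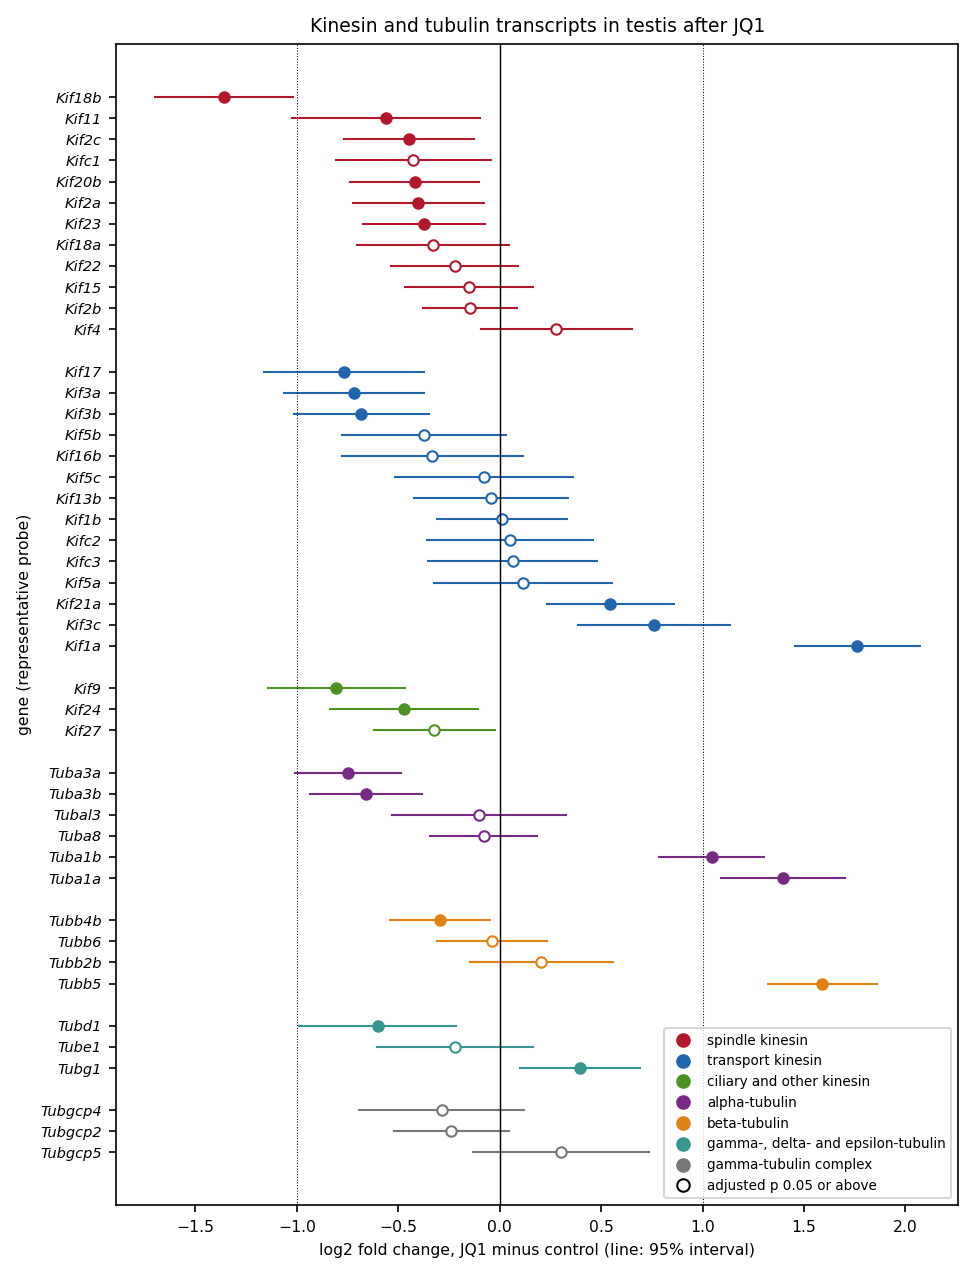
Log2 change (JQ1-treated minus control mice) of the 45 genes, grouped by class in rows and colours; points give the fitted change of the brightest kept probe and lines its 95% interval, filled points passed the test, and dotted lines mark 2-fold. No spindle kinesin lies among the filled points above 0, while the transport kinesins and the tubulin isotypes have filled points on both sides, from Kif1a at 1.76 to Kif17 at -0.77 in the former and from Tubb5 at 1.59 to Tuba3a at -0.75 in the latter.

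Spindle kinesins fell or did not pass. Of 12 measured, 6 fell and 0 rose (50.0% lower, against the background of 21.6%), and the median change was -0.39, with -0.24, -0.42 and -0.36 in JQ1-treated mice 1, 2 and 3. The median over all genes was 0.00. The count rested on small changes: with cyclic loess normalization 1 of 12 (8.33%) was lower, Kif18b, where 1951 of all 11755 genes were. Leaving out JQ1-treated mouse 2 gave 1 as well, with no count over all genes for that fit. Only Kif18b changed by 2-fold or more. This motor of the kinesin-8 family is known from human cells to work with the depolymerase Kif2c at the tips of astral microtubules. Its log2 signal was 9.15 and 8.80 in the control mice and 7.62, 7.73 and 7.48 in the JQ1-treated mice. All treated mice thus lay more than 1 log2 unit below both controls. The change was -1.36 (SE 0.16), or 2.57-fold lower (adjusted p = 4.08e-06 from limma), and its other kept probes also fell, by 0.97 and 0.75 on the log2 scale.

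The other 5 that fell did so by less than 1.5-fold. Kif2c, a kinesin-13 that shortens microtubules at centromeres, had signals of 9.20 and 9.18 in control mice and of 8.94, 8.53 and 8.76 in JQ1-treated mice. It fell by 0.45 (SE 0.15, adjusted p = 0.023). A second depolymerase of this family, Kif2a, which acts at spindle poles, was at 8.74 and 8.55 in control mice and at 8.38, 8.24 and 8.11 in treated mice (-0.40, SE 0.15, adjusted p = 0.0413). Both showed no overlap between groups, although the nearest mice of Kif2a lay close together. Kif20b, a kinesin-6 of late cytokinesis, was at 8.31 and 8.43 in control mice and at 7.94, 7.91 and 8.00 in treated mice (-0.42, SE 0.15, adjusted p = 0.0312). Kif23, the motor of centralspindlin, which gathers microtubules at the division plane, had signals of 9.91 and 10.13 in control mice and of 9.79, 9.46 and 9.68 in treated mice. It fell by 0.375 at this probe (SE 0.14, adjusted p = 0.0409). Another Kif23 probe, designed on a different transcript record, went the other way, with signals of 8.29 and 8.35 in control mice and of 8.76, 9.19 and 8.76 in treated mice (0.58, adjusted p = 0.0065). A further probe on the same record as the first also fell (-0.43, adjusted p = 0.0496). The direction of Kif23 therefore depended on the probe, and the mean of its kept probes gave -0.07 (adjusted p = 0.654).

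Kif11, the kinesin-5 that pushes the spindle poles apart, varied most among the treated mice. Its signal was 6.49 and 6.82 in control mice and 6.53, 5.73 and 6.02 in treated mice, so that JQ1-treated mouse 1 lay between the controls. The change was -0.56 (SE 0.22, adjusted p = 0.0471). In each of these 5 genes the call was lost in several fits without 1 mouse: for Kif2c without control mouse 1 (adjusted p = 0.113), control mouse 2 (0.0883) or JQ1-treated mouse 2 (0.118), for Kif20b without the same mice (0.0811, 0.169 and 0.0913), and for Kif2a (0.271, 0.0603 and 0.0951), Kif23 (0.0623, 0.287 and 0.171) and Kif11 (0.0529, 0.271 and 0.221) without the same mice or JQ1-treated mouse 3 (0.118, 0.0629 and 0.115).

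Of the 6 spindle kinesins that did not pass, Kifc1, a minus-end motor that focuses spindle poles and also acts in spermatid shaping, had a change of -0.43 (adjusted p = 0.0648). Kif18a, which damps chromosome movements, had one of -0.33 (adjusted p = 0.144). Kif2b, a kinesin-13 with strong signal on these arrays, was at 13.04 and 13.01 in control mice and at 12.89, 12.91 and 12.84 in treated mice (-0.15, 95% interval -0.38 to 0.09, adjusted p = 0.298), but fell by 0.47 with median scaling (adjusted p = 0.00798). Named after their values were seen, Kif22 (-0.22, adjusted p = 0.239) and Kif4 (0.28, adjusted p = 0.213), both chromosome-arm motors, and Kif15, which backs Kif11 in bipolar spindles (-0.15, adjusted p = 0.433), did not pass either. No value is given for Kif20a and the Kifc1 paralog Kifc5b, which were detected in no mouse.

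Many genes of the late cell cycle carry a short promoter element, the cell cycle genes homology region, whose core was searched here as TTTGAA on both strands (read as TTCAAA on the other). RefSeq (GRCm38.p6) promoter windows, from 250 bases before to 50 bases after each gene's start, were matched for 36 of the 45 genes. A gene was counted where any of its windows held the motif. The core stood in 9 of the 12 spindle kinesins (75.0%), against 20.2% of all 27025 genes with a window, in 1 of 9 transport kinesins (Kif1a), in 1 of 3 ciliary and other kinesins (Kif27) and in 2 of 10 tubulin isotypes (Tuba3b and Tubb4b). Within 25 bases of the start it stood in 8 of the 12 spindle kinesins (66.7%), against 3.10% of all genes with a window and none of the other classes. These matches are descriptions of sequence and not measured sites. The 9 windows of 30 bases are shown to let the placement of the core be compared, with the core in capitals, and the first 5 belong to genes that fell.
Kif18b: cggaccggctagTTTGAAcgcgccgcgccg
Kif2c: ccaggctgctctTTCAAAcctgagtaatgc
Kif20b: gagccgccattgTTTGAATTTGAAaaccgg
Kif23: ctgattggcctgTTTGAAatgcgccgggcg
Kif11: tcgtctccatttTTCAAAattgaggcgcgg
Kifc1: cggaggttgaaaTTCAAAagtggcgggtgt
Kif15: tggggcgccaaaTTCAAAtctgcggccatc
Kif22: gggccccggtaaTTCAAAagagagaagcgg
Kif4: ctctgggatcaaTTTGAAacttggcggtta

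Counted from the start site, the first base of the core shown lay at 4 in Kif18b (chr11:102925104-102925133, minus strand), 8 in Kif20b (chr19:34922353-34922382, plus), 3 in Kif23 (chr9:61946780-61946809, minus), -19 in Kif11 (chr19:37376351-37376380, plus) and, farther out, -103 in Kif2c (chr4:117178858-117178887, minus). In the 4 genes that did not pass it lay at 2 in Kifc1 (chr17:33890615-33890644, minus), -19 in Kif15 (chr9:122951050-122951079, plus), -17 in Kif22 (chr7:127042420-127042449, minus) and 20 in Kif4 (chrX:100626072-100626101, plus), and Kif15 and Kif22 hold a second core farther from the start. The core was thus shared by genes that fell and genes that did not pass. The whole Kif18b window (chr11:102925075-102925374, minus strand) is shown because this gene fell furthest, with the core and the CCAAT boxes (CCAAT, or ATTGG on the other strand, in 41.1% of all genes with a window and 58.3% of spindle kinesins) in capitals.
Kif18b promoter: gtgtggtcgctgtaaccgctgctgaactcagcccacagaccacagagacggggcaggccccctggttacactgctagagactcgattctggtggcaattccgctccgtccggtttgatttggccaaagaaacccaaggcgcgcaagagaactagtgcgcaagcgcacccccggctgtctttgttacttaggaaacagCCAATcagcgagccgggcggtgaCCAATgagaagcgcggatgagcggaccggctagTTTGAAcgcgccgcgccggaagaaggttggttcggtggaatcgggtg

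**Figure D2:**
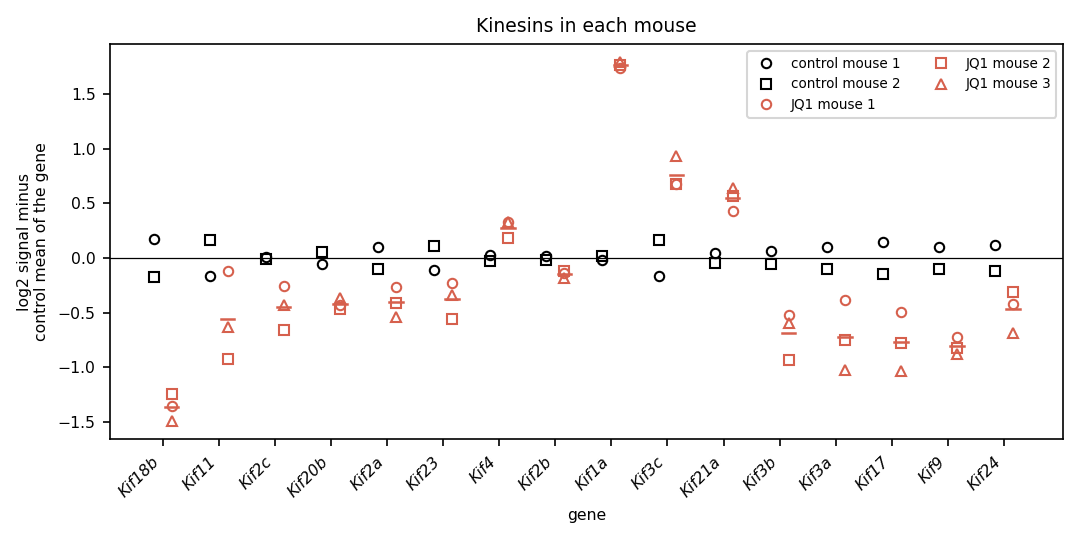
Log2 signal of 16 kinesins in each mouse minus the control mean of that gene; black symbols are control mice, red symbols JQ1-treated mice and red bars the mean of the treated mice. The 3 treated mice of Kif1a sit together above the controls and those of Kif18b together below, whereas the treated mice of Kif11 are spread and reach the control range.

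Transport kinesins had no common direction: of 14 measured, 3 rose, 3 fell and 8 did not pass, and the median change was -0.02. The shares (21.4% each) lie near the 25.0% higher and 21.6% lower over all genes. Kif1a, a kinesin-3 best known for carrying synaptic vesicle precursors in neurons, had the largest change of the 45 genes at the probe that represents it. There the signal was 7.23 and 7.27 in control mice and 8.99, 9.01 and 9.04 in treated mice. The treated mice lay within 0.1 of one another, and the change was 1.76 (SE 0.15), or 3.39-fold higher (adjusted p = 1.12e-07 from limma). The other probe, assigned to the same transcript record, was at 7.57 and 7.46 in control mice and at 7.26, 6.97 and 7.08 in treated mice (-0.41, adjusted p = 0.0556). This probe was the brighter of the pair in the control mice, so that the probe standing for Kif1a was chosen through its signal in treated mice. The probes had changes of opposite sign, and their mean gave 0.68 (adjusted p = 0.00112), short of 2-fold and below Tubb5, Tuba1a and Tuba1b. Of the neuronal markers checked, Rbfox3 (0.29, adjusted p = 0.283) and Syp, detected in no control mouse (adjusted p = 0.477), did not pass, and Snap25 and Gap43 were detected in no mouse.

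The heterotrimeric kinesin-2 motor, made of Kif3a, Kif3b and the adaptor Kifap3, drives transport into cilia and flagella. Kif3a was at 10.51 and 10.31 in control mice and at 10.02, 9.66 and 9.38 in treated mice, and fell by 0.72 (SE 0.16, 1.65-fold lower, adjusted p = 0.00166). Its dimmer probe gave -0.01 (adjusted p = 0.971), and the mean of both gave -0.36 (adjusted p = 0.0553). Kif3b was at 9.00 and 8.88 in control mice and at 8.42, 8.00 and 8.34 in treated mice, and fell by 0.68 (SE 0.16, 1.6-fold lower, adjusted p = 0.00204) and by 0.89 at its other probe. In Kif3b, then, both probes fell, and in Kif3a only the brighter one did. Kifap3, named after its value was seen, fell by 0.40 (adjusted p = 0.0329).

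Kif3c, which can pair with Kif3a in place of Kif3b, moved the other way. Its signal was 6.45 and 6.78 in control mice and 7.29, 7.29 and 7.55 in treated mice, a rise of 0.76 (SE 0.18, 1.69-fold, adjusted p = 0.00214). The groups did not overlap, and Kif3c has a single kept probe. Kif17, a homodimeric kinesin-2 that in mouse germ cells binds ACT, a coactivator of CREM, was at 7.76 and 7.46 in control mice and at 7.11, 6.83 and 6.58 in treated mice. It fell by 0.77 (SE 0.19, 1.7-fold lower, adjusted p = 0.00293), with other probes at -0.77 (adjusted p = 0.00268) and -0.25 (adjusted p = 0.29). Without control mouse 1 the change was -0.62 (adjusted p = 0.0566).

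Kif21a, a kinesin-4 that slows microtubule growth, was at 8.18 and 8.09 in control mice and at 8.57, 8.70 and 8.78 in treated mice. It rose by 0.545 (SE 0.15, 1.46-fold, adjusted p = 0.00621). All treated mice lay above both controls, but in 1 fit without 1 mouse the adjusted p reached 0.0535. Among the kinesin-1 genes, which carry organelles and vesicles, Kif5b had a change of -0.37 (adjusted p = 0.126) and Kif5c one of -0.08 (adjusted p = 0.79). Kif5a, detected in 2 treated mice and no control mouse, did not pass and is given no fold. The kinesin-3 gene Kif1b gave 0.01 (adjusted p = 0.963) at the probe that represents it, while its 6 kept probes ran from -0.52 (adjusted p = 0.0179) to 0.69 (adjusted p = 0.00443). The other 4 that did not pass, Kif13b, Kif16b, Kifc2 and Kifc3, had changes from -0.33 to 0.06. The genes of this paragraph, and below Tubal3, Tubb2b, Tubb6 and Tubgcp5, fall outside the naming rule and were named after their values were seen.

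Of the 3 ciliary and other kinesins measured, 2 fell and 1 did not pass (median -0.47). Kif9, a kinesin of the sperm flagellum, was at 8.24 and 8.05 in control mice and at 7.42, 7.32 and 7.27 in treated mice. It fell by 0.81 (SE 0.16, 1.75-fold lower, adjusted p = 0.000559), and by 1.03 at its other probe (adjusted p = 0.000233). Treated and control mice were well apart. Kif24, a kinesin-13 of the mother centriole that restrains ciliation in human cells, was at 7.82 and 7.59 in control mice and at 7.29, 7.40 and 7.02 in treated mice (-0.47, SE 0.17, adjusted p = 0.0349). Without control mouse 1 or JQ1-treated mouse 3 its call was lost (adjusted p = 0.241 and 0.126). Kif27, a Hedgehog pathway kinesin related to fly Costal2 and needed for motile cilia, had signals of 10.30 and 10.39 in control mice and of 10.20, 9.80 and 10.08 in treated mice (-0.32, adjusted p = 0.0751), and passed with median scaling (-0.49, adjusted p = 0.00851).

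Tubulin isotypes were called in both directions. Of 13 measured, 4 rose (30.8%, 3 of them by 2-fold or more), 4 fell (30.8%) and 5 did not pass, with a median change of -0.08, and the shares lie near the 25.0% and 21.6% over all genes. Alpha-tubulin genes of wide expression rose and the testis-enriched pair fell. Tuba1a was at 8.70 and 8.48 in control mice and at 9.83, 10.12 and 10.02 in treated mice, 2.63-fold higher (log2 change 1.40, SE 0.15, adjusted p = 9.48e-07 from limma). Its other probe was at 7.09 and 7.38 in control mice and at 8.19, 8.44 and 8.75 in treated mice and rose by 1.23. Both probes showed every treated mouse above both controls. Tuba1b was at 11.74 and 11.64 in control mice and at 12.55, 12.86 and 12.79 in treated mice, 2.06-fold higher (1.05, SE 0.12, adjusted p = 3.85e-06). It stayed under 2-fold with median scaling (0.73) and without control mouse 2 (0.99) or JQ1-treated mouse 2 (0.98).

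Tuba3a and Tuba3b, a near-identical alpha-tubulin pair expressed mainly in the testis, were lower in every treated mouse. Tuba3a was at 12.92 and 12.78 in control mice and at 12.19, 12.21 and 11.91 in treated mice, 1.68-fold lower (-0.75, SE 0.12, adjusted p = 0.000114), and its 4 kept probes ran from -0.75 to -0.61 and all passed. Tuba3b was at 12.83 and 12.76 in control mice and at 12.19, 12.34 and 11.90 in treated mice, 1.58-fold lower (-0.66, SE 0.13, adjusted p = 0.00057). JQ1-treated mouse 3 was the lowest for both. Across the alternative settings the change ran from -1.06, past 2-fold, to -0.65 in Tuba3a and from -0.98 to -0.54 in Tuba3b. Since their transcripts are nearly the same, the probes may share targets, and the values of the pair are not taken as independent. Shared targets were not checked for the probes of Tuba1a and Tuba1b either. Tuba8, with signals of 10.82 and 10.67 in control mice and of 10.62, 10.63 and 10.73 in treated mice, did not pass (-0.08, 95% interval -0.34 to 0.19, adjusted p = 0.634). Tubal3, an alpha-tubulin-like gene near the detection limit, had a change of -0.10 (adjusted p = 0.714).

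The promoter windows of the pair that fell and of Tuba1b, which rose, are shown because they stand on opposite sides of the alpha-tubulin split. Capitals mark the CCAAT box and the TTTGAA core on either strand, and the windows are Tuba3a chr6:125286032-125286331 (minus strand), Tuba3b chr6:145615713-145616012 (plus) and Tuba1b chr15:98934341-98934640 (minus). The Tuba1b window holds neither motif, and the CCAAT box stood in 6 of 10 tubulin isotypes with a window (60.0%), against 41.1% of all genes with a window.
Tuba3a promoter: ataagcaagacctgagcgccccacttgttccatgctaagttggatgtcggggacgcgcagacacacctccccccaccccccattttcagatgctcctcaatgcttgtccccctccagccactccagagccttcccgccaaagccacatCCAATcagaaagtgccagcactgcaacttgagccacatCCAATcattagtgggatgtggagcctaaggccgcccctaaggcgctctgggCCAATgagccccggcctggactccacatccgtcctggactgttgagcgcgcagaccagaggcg
Tuba3b promoter: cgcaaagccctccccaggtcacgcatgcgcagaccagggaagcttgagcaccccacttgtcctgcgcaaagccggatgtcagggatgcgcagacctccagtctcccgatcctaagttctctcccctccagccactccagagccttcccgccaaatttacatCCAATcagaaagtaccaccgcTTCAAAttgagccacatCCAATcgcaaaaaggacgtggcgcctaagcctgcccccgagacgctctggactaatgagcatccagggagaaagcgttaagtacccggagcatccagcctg
Tuba1b promoter: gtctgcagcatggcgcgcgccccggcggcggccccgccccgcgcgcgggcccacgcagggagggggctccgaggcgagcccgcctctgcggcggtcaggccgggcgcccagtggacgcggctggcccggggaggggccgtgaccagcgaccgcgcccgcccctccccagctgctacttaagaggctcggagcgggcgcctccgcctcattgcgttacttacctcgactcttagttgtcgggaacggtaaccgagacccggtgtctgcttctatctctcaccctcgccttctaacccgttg

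Of 4 beta-tubulins measured 1 rose and 1 fell. Tubb5, the beta-tubulin of most tissues, rose most among the tubulins. Its signal was 10.94 and 11.28 in control mice and 12.62, 12.67 and 12.81 in treated mice, 3.01-fold higher (1.59, SE 0.13, adjusted p = 8.6e-08). The gap between the groups was several times the spread within them. Tubb4b, a beta-tubulin used in cilia and axonemes, was at 13.09 and 12.95 in control mice and at 12.86, 12.68 and 12.64 in treated mice, 1.23-fold lower (-0.29, SE 0.12, adjusted p = 0.0493). This call sat at the threshold and was lost without control mouse 1 (adjusted p = 0.278), control mouse 2 (0.0738), JQ1-treated mouse 2 (0.125) or JQ1-treated mouse 3 (0.169). Across the alternative settings the change of Tubb4b ran from -0.62 to -0.21. Tubb6 was level in all mice, at 10.17 and 10.20 in control mice and at 10.16, 10.21 and 10.07 in treated mice (-0.04, 95% interval -0.31 to 0.23, adjusted p = 0.836). Tubb2b had a change of 0.21 (adjusted p = 0.333). The neuronal isotype Tubb3 was detected in no mouse, and neither were Tuba4a, Tubb1, Tubb2a and Tubb4a.

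**Figure D3:**
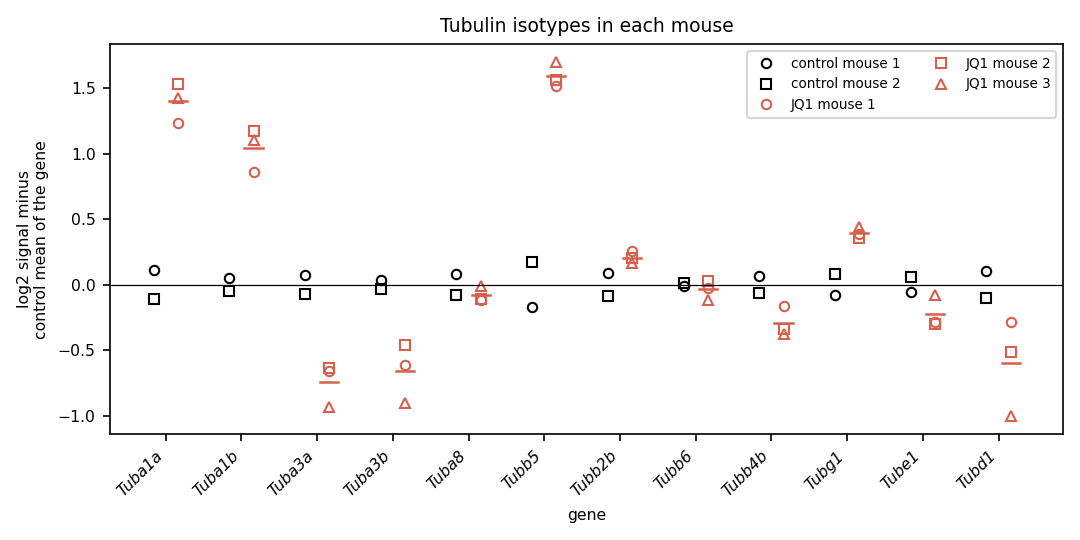
Log2 signal of 12 tubulin isotype genes in each mouse minus the control mean of that gene; black symbols are control mice, red symbols JQ1-treated mice and red bars the mean of the treated mice. Treated mice of Tubb5, Tuba1a and Tuba1b lie above their controls, those of Tuba3a and Tuba3b lie below, and those of Tubb6 and Tuba8 fall within or near the control range.

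The less abundant tubulins serve centrosomes and centrioles. Tubg1, the gamma-tubulin that nucleates microtubules, was at 8.66 and 8.82 in control mice and at 9.12, 9.09 and 9.18 in treated mice, 1.31-fold higher (0.39, SE 0.14, adjusted p = 0.0303). The call was lost without control mouse 1 (adjusted p = 0.223), control mouse 2 (0.0542), JQ1-treated mouse 2 (0.0617) or JQ1-treated mouse 3 (0.0698). Tubd1, the delta-tubulin needed for triplet microtubules of centrioles, was at 8.86 and 8.65 in control mice and at 8.47, 8.24 and 7.75 in treated mice. It was 1.52-fold lower (-0.60, SE 0.19, adjusted p = 0.0131), with -0.78 at its other probe (adjusted p = 0.00143). JQ1-treated mouse 3 was far the lowest, and the change was -0.40 (adjusted p = 0.068) without it and -0.50 (adjusted p = 0.125) without control mouse 1. Tube1, the epsilon-tubulin that acts with it, had a change of -0.22 (adjusted p = 0.34). In the gamma-tubulin complex, the ring that templates new microtubules, 0 of 3 genes passed at the probe that represents them: Tubgcp2 had a change of -0.24 (adjusted p = 0.159), Tubgcp4 one of -0.285 (adjusted p = 0.244), and Tubgcp5, detected in no control mouse and with overlapping groups, did not pass (adjusted p = 0.25). Tubgcp4 was also read by a dimmer probe, which was lower (-0.65, adjusted p = 0.00969), and the mean of both probes gave -0.47 (adjusted p = 0.0299). With median scaling Tubgcp2 fell by 0.40 (adjusted p = 0.0195).

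More than 1 probe was kept for 17 of the 45 genes. In 6 of them (Kif18b, Kif3b, Kif9, Tuba1a, Tuba3a and Tubd1) every kept probe was called in 1 direction, and in 2 (Kif1b and Kif23) probes were called in both. Taken singly, 44.1% of all kept probes of the array were called in either direction. The share of all genes whose probes were called alike was not counted. Where probes of a gene differ, the transcript form each one reads was not tested.

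**Figure D4:**
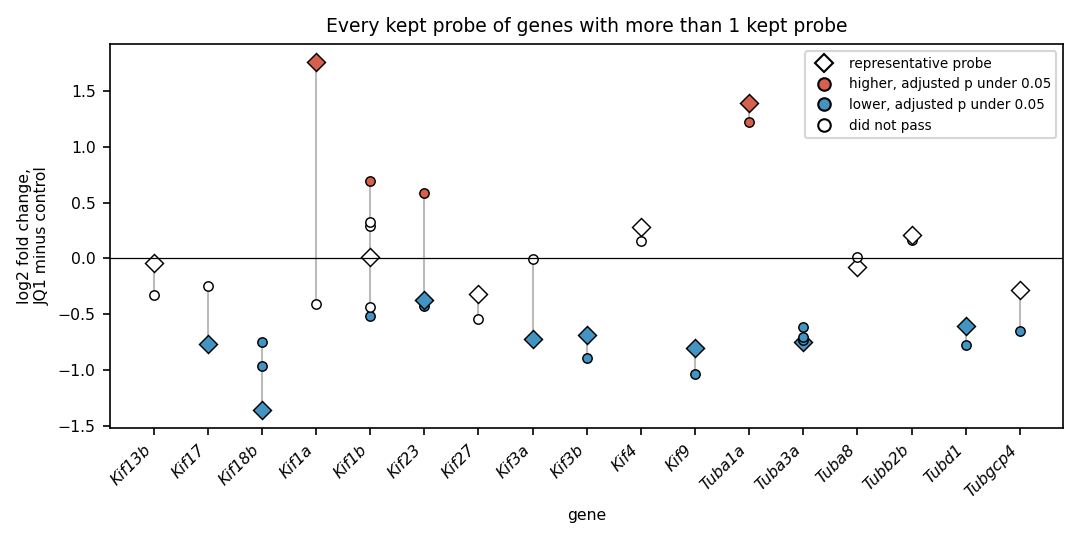
Log2 change (JQ1-treated minus control mice) of every kept probe of the 17 genes with more than 1 kept probe; diamonds are the probes that represent a gene, circles the others, and red or blue ones passed the test as higher or lower. The probes of Tuba3a lie together between -0.75 and -0.61, whereas those of Kif1a, Kif1b and Kif23 stand on both sides of 0.

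Other genes of the microtubule system were counted from 6 lists, beside 25.0% higher and 21.6% lower over all genes. These lists and the marker lists were read from the main fit at the brightest kept probe. The other normalizations and the fits without 1 mouse were not run on them, so the stability of their counts was not tested. Of 22 spindle and cytokinesis partners measured, 12 fell (54.5%) and 0 rose (median -0.37). The largest falls were those of the mitotic kinase Plk1 (-2.40, adjusted p = 4.17e-08), the meiotic Aurora kinase Aurkc (-1.62, adjusted p = 3.36e-07) and the kinetochore protein Cenpf (-1.56, adjusted p = 6.96e-06). Tubulin-modifying enzymes also fell more often than they rose: of 26 measured, 13 fell (50.0%) and 3 rose (11.5%), with a median of -0.46. Among them the tubulin deglutamylase gene Agbl4 fell by 1.18 (adjusted p = 1.67e-05), while Hdac6, which deacetylates alpha-tubulin, rose by 1.24 (adjusted p = 6.96e-06) and Ttll12, of the tubulin tyrosine ligase-like family, by 1.41 (adjusted p = 3.52e-06).

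The other lists held genes called in both directions, as did all genes (25.0% higher and 21.6% lower). Of 23 dynein and dynactin genes 5 rose and 5 fell (21.7% each, near the shares over all genes, median -0.16). Among them were the light chain genes Dynlt3 (1.38, adjusted p = 6.36e-06) and Dynlrb1 (0.95, adjusted p = 0.000114) upward and Dync2h1, the heavy chain of ciliary dynein transport, downward (-0.76, adjusted p = 0.000322). Of 22 microtubule-associated proteins 4 rose (18.2%) and 6 fell (27.3%), with a median of 0.02. The 3 with the largest changes were Map1b (1.35, adjusted p = 4.32e-06), Mapre1 (1.28, adjusted p = 3.54e-07) and Mapre2 (1.00, adjusted p = 0.000205), which bind microtubules or their growing ends. Of 9 kinesin adaptors 3 rose (33.3%) and 2 fell (22.2%), with a median of 0.15. Kidins220 was at 1.06 (adjusted p = 1.27e-05), Trak2 at 0.85 (adjusted p = 0.00046) and Mapk8ip2 at -0.83 (adjusted p = 0.000578). Of 18 tubulin folding genes 1 rose (5.56%) and 3 fell (16.7%), both below the shares over all genes (median 0.02). The 1 that rose, the prefoldin subunit gene Vbp1, was detected in no control mouse and has a bound of at least 1.39-fold. The chaperonin subunit genes Tcp1 and Cct6b fell by 0.61 (adjusted p = 0.00331) and 0.49 (adjusted p = 0.0037). Dynll2 of the dynein list and Ttl of the tubulin-modifying list are named because they were likewise detected in no control mouse. They are counted among the genes that rose, with bounds of at least 1.27-fold and at least 1.1-fold. Vbp1, Dynll2 and Ttl passed the detection filter only through treated mice, so their calls depend in part on that filter and are not taken as support.

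**Figure D5:**
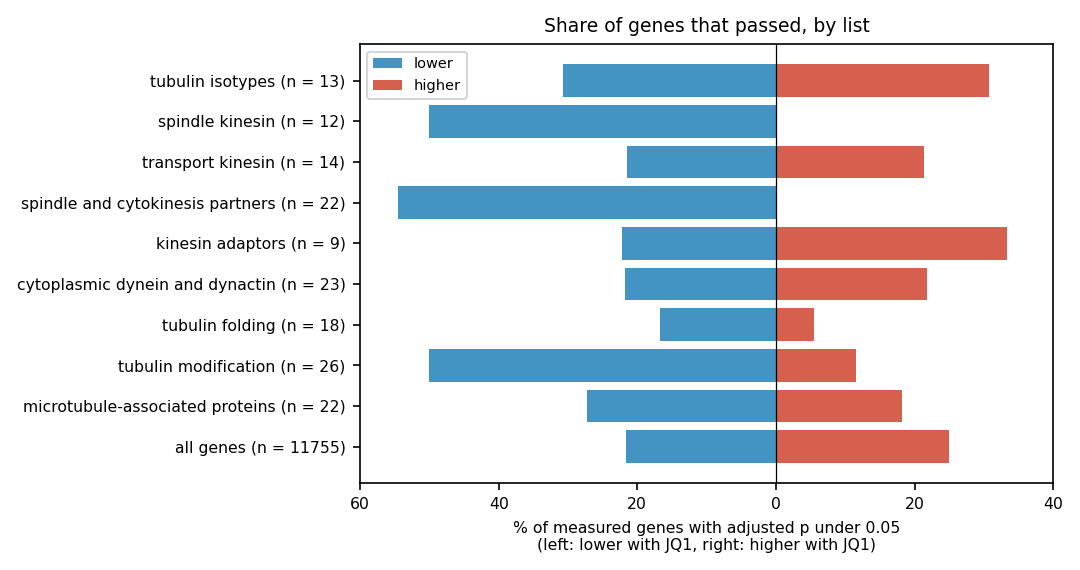
Percent of measured genes that passed the test as higher and as lower with JQ1, for the spindle kinesins, transport kinesins, tubulin isotypes, the 6 lists of other microtubule genes and all genes. Spindle kinesins (50.0% lower) and their partners have bars on the lower side only, against 25.0% higher and 21.6% lower over all genes.

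Markers of several somatic cell types and of spermatogonia were higher in the treated mice, where 25.0% of all genes were. Beside the Sertoli cell markers given above (median change 1.34), 4 of 4 measured Leydig cell markers rose (summed signal 9230 to 10800 in control and 19200 to 26700 in treated mice), 4 of 5 macrophage markers (629 to 896 and 1110 to 1690) and 4 of 7 spermatogonial markers (1200 to 1260 and 1860 to 2170). The spermatogonial markers that rose were Kit, Uchl1, Sall4 and Sohlh1. Zbtb16 (-0.06, adjusted p = 0.83), Sohlh2 (0.16, adjusted p = 0.545) and Stra8, detected in no control mouse (adjusted p = 0.2), did not pass. Of the peritubular and stromal markers 2 of 6 rose (33.3%, 3230 to 3390 and 6510 to 7780), Acta2 and Myh11. Their sum rested mainly on Acta2, with mean log2 signals of 11.54 in control and 12.70 in treated mice, against 6.92 and 7.61 for Myh11. Col1a1, Col1a2, Col3a1 and Des did not pass. None of 5 endothelial and 9 elongating spermatid markers passed. Of the pachytene spermatocyte markers 2 of 6 fell (33.3%, 84000 to 91000 and 70700 to 75500), and of the round spermatid markers 2 of 7 (28.6%, 29600 to 30800 and 24600 to 27200), shares near the 21.6% over all genes. The brightest pachytene marker, Ldhc, had the same log2 signal of 14.98 in all 3 treated mice. Quantile normalization gives probes of equal rank the same value, so this identity is not a measure of equal raw signal. Sums of germ cell markers rest on such very bright probes, where changes may be understated, and this was not tested. The changes of the widely expressed tubulins and of the spindle and flagellar genes stand beside these shifts, and the part of cell composition in them was not tested.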

How the data were processed

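Testis RNA of 2 control and 3 JQ1-treated mice was hybridised to 6 Illumina bead arrays. The authors deposited, per array, raw signal intensity and a detection p-value for each probe, and a processed intensity that they had corrected for background and normalized; per their methods the technical pair was averaged and negative values were set to 1 before testing. Slide and scan date were not used here, and the number of mice limits precision. No per-sample column was left unassigned.

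In R 4.3.3 with limma 3.58.1, raw intensity was corrected by normexp (negative controls inferred from the detection p-values, offset 16), quantile normalized and taken to log2, and the 2 arrays of control mouse 1 were averaged. Probes with detection p under 0.05 in at least 2 mice were kept (20901). Control mouse 1 counted as detected where either array was. Linear models with an intensity trend were fitted and p-values adjusted by Benjamini-Hochberg over all kept probes. The Comparative Marker Selection module named in the methods was not run. Very small p-values rest largely on moderation by the other probes. Quantile normalization makes each value relative to the other transcripts of the testis.

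Probes were named from the platform annotation (34885 with 1 symbol, 18 with several, 10378 with none), and 0 symbols of these genes needed updating. Promoters came from RefSeq (GRCm38.p6). A gene detected in no mouse of a group has a bound in place of a fold, set against the dimmest signal among detected probes, or no value. The genes, classes, lists and naming rule were chosen with earlier results of these data known. Named were members past 2-fold, up to 5 largest changes that passed and the 2 brightest per class, 19 genes listed by name where kept, and up to 3 genes per other list. On simulated data for this comparison (20901 probes), 94 of 100 probes changed by 1 and 100 of 100 changed by 1.5 on the log2 scale were called, with 20 calls among 20701 unchanged probes. Only these few probes were changed there, whereas 44.1% of kept probes were called in the real data. Noise was drawn independently for each probe, and normalization, filtering and changes smaller than 1 were not simulated. Alternatives changed the background correction, normalization, starting values, detection filter, technical pair, moderation, replicate block, probe choice and the mice included.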

Additional observations from a re-analysis of the deposited data

How the results depend on the processing

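Across 551 comparisons of the 29 named genes with 19 alternatives, 477 kept direction and side of the threshold, 64 fell short of it, 9 passed newly and 1 reversed, Tuba8 with cyclic loess (0.0225). The genes that passed newly were Kif27, Kif2b, Kifc1, Tubgcp2 and Tubgcp4. Small calls near the threshold are the limit here, as are 5 mice. Without background correction the median changes were -0.2422 (spindle kinesins), -0.3142 (ciliary and other kinesins), -0.0400 (tubulin isotypes) and -0.1254 (gamma-tubulin complex). Cyclic loess moved the median of all genes to 0.0666, with 1951 of all 11755 genes lower against 2537 in the main fit. It gave 8 lower genes among the 45 and medians of -0.2672 (spindle), 0.0225 (isotypes) and -0.1166 (complex). Median scaling, which moved it to -0.0651, gave 2 genes lower by 2-fold and an isotype median of -0.1900. Without a detection filter 9 genes were lower, and the medians were -0.1869 (ciliary) and -0.0721 (complex). With the mean of all kept probes the isotype median was -0.0377. Counting any kept probe, an alternative chosen after seeing the data, gave 2 genes lower by 2-fold; so was the filter on the mean detection p of the technical pair. Leaving out 1 mouse gave 6 to 16 lower genes, 5 to 7 higher and 3 to 4 higher by 2-fold, and medians from -0.4324 to -0.2807 (spindle), -0.069 to 0.0266 (transport), -0.5872 to -0.3623 (ciliary), -0.1571 to -0.0074 (isotypes) and -0.3706 to -0.1061 (complex). With the mouse number as a replicate block, which leaves JQ1-treated mouse 3 out of the contrast, 7 genes were higher and 12 lower and the isotype median was -0.0074; same-numbered mice share only a number (correlation of deviations 0.146 and 0.022 over 2 pairs). The cause of these shifts was not tested.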
